A study of Mus musculus with 2 samples.

Results

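The genes described here are 10 enzymes that make serine and carry one-carbon units on folate: Phgdh, Psat1, Psph, Shmt1, Shmt2, Mthfd1, Mthfd1l, Mthfd2, Aldh1l1 and Aldh1l2. They were taken from the deposited gene count table by symbol, 1 row each, out of 24532 genes. All 10 passed a minimum level, as 9935 genes in all did. The minimum was 5 CPM averaged over both libraries, where CPM is the count relative to a library size scaled with TMM, the trimmed mean of M values. The libraries came from mouse cardiac myofibroblasts, isolated from C57BL/6 animals 3 days after myocardial infarction and profiled by messenger RNA sequencing. One library was from cells transfected with siControl, a control siRNA, and the other from cells transfected with siBcat1, an siRNA against the cytosolic branched-chain amino acid aminotransferase gene. Both siRNAs were used at 12.5 nM with 72 hours of culture, so the cells of both groups were isolated after infarction, grown in serum and transfected. With 1 library per group and 1 siRNA per target, no difference has a replicate check and no test was made. Bracketed intervals are exact 95% intervals that cover counting error only.

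De novo serine synthesis starts from the glycolytic intermediate 3-phosphoglycerate. Phgdh oxidises it, Psat1 transfers an amino group from glutamate, and Psph removes the phosphate. Serine hydroxymethyltransferases then split serine into glycine and a one-carbon unit on tetrahydrofolate, and the unit is oxidised step by step to formate or to carbon dioxide. Mitochondria and cytosol each have their own enzymes for this, and the products feed purine, thymidylate and methionine synthesis. In fibroblasts the pathway is known for supplying glycine, the most frequent residue of collagen.

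Bcat1 itself had 8891 counts in the siControl library and 99 in the siBcat1 library. The libraries held 127309329 and 104581819 counts. Longer transcripts had lower folds across the whole table: a smooth trend on transcript length took up 38.2% of the variance of the log2 folds, so the folds of the enzyme genes and of the listed pathway genes are also given with that trend removed (length-adjusted). The deposited TPM values, which are scaled for length and depth, lay on a lower footing in siBcat1, with log2 ratios 0.50 to 0.51 below the log2 folds of scaled counts for every one of the 10 genes. The median over all 9935 genes was -0.06 in scaled counts and -0.52 as a difference of log2(TPM + 1). Fibroblast and myofibroblast markers were abundant in both libraries, with summed TPM of 15712 and 9002 for the 10 fibroblast markers and 6114 and 4552 for the 7 myofibroblast markers. Of 11 macrophage markers 1 passed the minimum, Lyz2, with summed TPM of 15.0 and 35.1 for the list and with Ptprc, Adgre1, Fcgr1 and C1qa at 0 in both libraries. Of 9 cardiomyocyte markers 1 passed, Tnnt2, with summed TPM of 80.8 and 12.7 and with Myh6, Nppa, Ryr2, Pln and Mb at 0 in both. Of 8 endothelial markers 1 passed, Tek, with sums of 25.9 and 22.7, and of 6 mural cell markers 1 passed, Notch3, with sums of 27.5 and 8.08. The part of these markers in the folds below was not tested, and in bulk RNA fewer cells of a type and less RNA per cell cannot be told apart.

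In scaled counts the pathway as a whole differed little between the libraries, apart from its pair of 10-formyltetrahydrofolate dehydrogenases, which went opposite ways. Aldh1l2, the mitochondrial one, was 3.40-fold lower with siBcat1, and Aldh1l1, the cytosolic one, was 1.55-fold higher. The other 8 genes lay within 1.5-fold, with log2 folds of siBcat1 over siControl between -0.40 and 0.28. Thus 1 of 10 members was at least 1.5-fold lower, where 25.6% of all 9935 genes were, and 1 of 10 was at least 1.5-fold higher, where 17.6% were. At 2-fold, 1 member was lower and none was higher, against 13.0% and 5.58% of all genes. The members' median log2 fold was -0.15, beside -0.06 for all genes, and these shares set nothing about the pathway apart from the rest of the table.

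**Figure D1:**
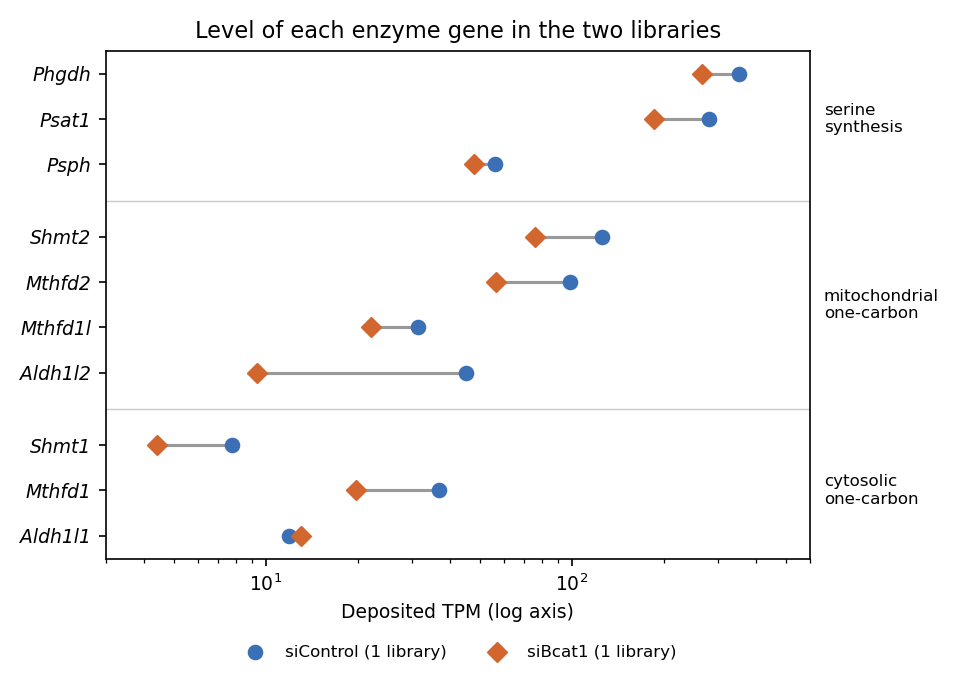
Deposited TPM (log axis) of the 10 enzyme genes in the siControl library (circles) and the siBcat1 library (diamonds), grouped by pathway arm, with a line joining the values of a gene. Aldh1l2 has the widest gap, from 45.1 to 9.36 TPM, and Aldh1l1 is the one gene with the higher value in siBcat1.

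On the TPM scale, which allows levels to be compared between genes, Phgdh and Psat1, the first and second genes for making serine, were the most abundant. In siControl the order of TPM was Phgdh, Psat1, Shmt2, Mthfd2, Psph, Aldh1l2, Mthfd1, Mthfd1l, Aldh1l1 and Shmt1. In siBcat1 the first 5 places were the same, followed by Mthfd1l, Mthfd1, Aldh1l1, Aldh1l2 and Shmt1. Aldh1l2 moved from the sixth place to the ninth, and its rank among all 24532 genes went from 3247 to 6437. Mthfd1 and Mthfd1l are close neighbours in this order, at 37.0 and 31.4 TPM in siControl and 19.8 and 22.0 TPM in siBcat1. There is no replicate spread to set such neighbours apart. Summed over the 10 genes, the level was 1047 TPM in siControl and 701 TPM in siBcat1, of which the serine synthesis genes made up 689 and 500 TPM, the mitochondrial one-carbon genes 301 and 164 TPM, and the cytosolic one-carbon genes 56.7 and 37.2 TPM.

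The 3 serine synthesis genes had small folds. Phgdh, the dehydrogenase of the first step (chromosome 3, 98313170 to 98339990, minus strand), had 41733 counts in siControl and 34473 in siBcat1, which is 318 and 340 CPM, and a log2 fold of 0.10 [0.08 to 0.12]. Psat1, the aminotransferase of the second step (chromosome 19, 15904678 to 15947337, minus strand), had 38675 and 28063 counts, 294 and 277 CPM, and a log2 fold of -0.09 [-0.11 to -0.06]. Psat1 and Bcat1 both encode aminotransferases that use glutamate and 2-oxoglutarate as one pair of amino donor and acceptor. Psat1 was 1.06-fold lower where Bcat1, the target of the siRNA, was 69.2-fold lower. Psph, the phosphatase that completes serine (chromosome 5, 129765558 to 129787449, minus strand), had 5465 and 5100 counts, 41.6 and 50.3 CPM, and a log2 fold of 0.28 [0.22 to 0.33]. Length-adjusted, Phgdh, Psat1 and Psph had -0.14, -0.14 and -0.04, so that Phgdh and Psph lay on either side of 0 depending on whether length was taken into account. As log2 ratios of deposited TPM all 3 were below 0, at -0.41, -0.59 and -0.23. Reads of Psph are uncertain in one respect. Its exons share 452 of 1733 bases (26.1%) with Cct6a on the opposite strand, which had 42220 and 52174 counts (log2 fold 0.68), and the sources do not say whether counting used strand.

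**Figure D2:**
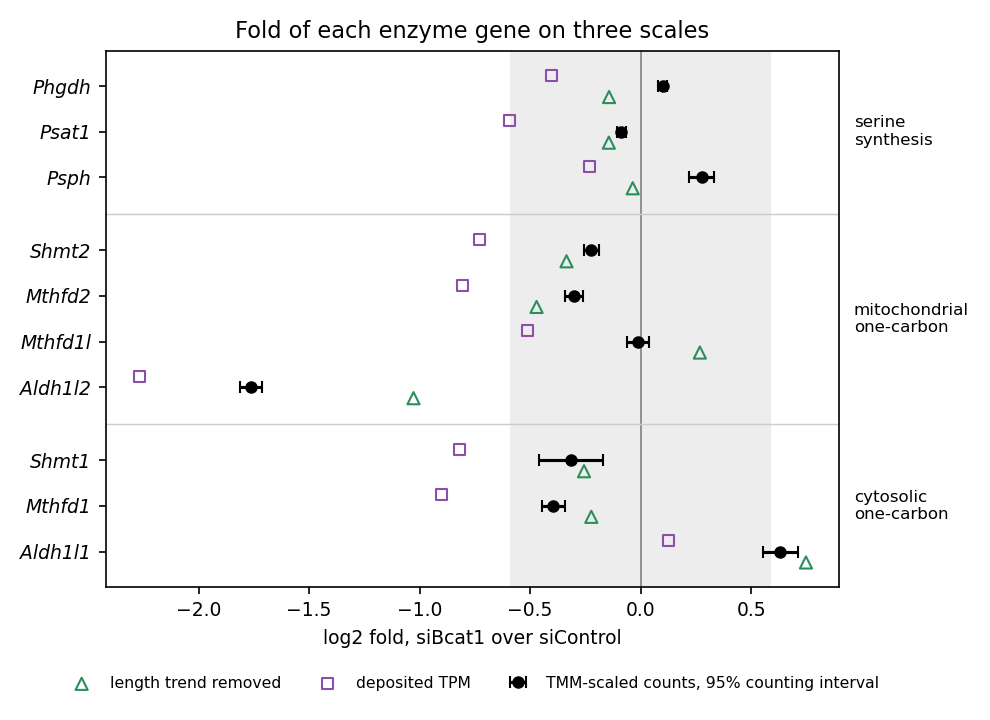
Log2 fold of siBcat1 over siControl for the 10 enzyme genes from TMM-scaled counts (black points, bars are 95% counting intervals), with the length trend removed (triangles) and from deposited TPM (squares); the grey band marks folds under 1.5-fold. Aldh1l2 lies left of the band on all 3 scales, and Aldh1l1 lies to the right of it on 2 of the 3.

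Both serine hydroxymethyltransferase genes were slightly lower, and to a like extent. Shmt2, the mitochondrial enzyme (chromosome 10, 127517123 to 127522444, minus strand), had 18334 and 12108 counts, 139 and 120 CPM, and a log2 fold of -0.22 [-0.26 to -0.19]. Shmt1, the cytosolic enzyme (chromosome 11, 60788104 to 60811718, minus strand), had 1016 and 630 counts, 7.73 and 6.22 CPM, and a log2 fold of -0.31 [-0.46 to -0.17]. Shmt1 was the member with the fewest reads and the widest interval. Its exons share 184 bases (6.44%) with Smcr8 on the opposite strand, which had 5211 and 2111 counts (log2 fold -0.93). The part of this overlap in the Shmt1 fold was not tested. Length-adjusted, Shmt2 had -0.34 and Shmt1 -0.26. With the trend on the length that counts and TPM imply removed instead, Shmt2 had -0.33 and Shmt1 -0.49, so their order rested on the length used. Mitochondrial Shmt2 was the dominant gene of the pair, at 16.2 times the TPM of Shmt1 in siControl and 17.2 times in siBcat1, and the log2 difference between the folds of the 2 genes, which does not depend on library scaling, was 0.09 [-0.06 to 0.24].

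The genes of the middle steps were also within 1.5-fold. Mthfd2, the mitochondrial methylene-tetrahydrofolate dehydrogenase and cyclohydrolase (chromosome 6, 83305691 to 83325908, minus strand), had 12987 and 8126 counts, 98.8 and 80.2 CPM, and a log2 fold of -0.30 [-0.34 to -0.26] and a length-adjusted value of -0.47. Mthfd1l, the mitochondrial synthetase that releases formate (chromosome 10, 3973118 to 4167081, plus strand), had 7386 and 5648 counts, 56.2 and 55.8 CPM, and a log2 fold of -0.01 [-0.06 to 0.04] and a length-adjusted value of 0.27. Mthfd1, the cytosolic protein that holds dehydrogenase, cyclohydrolase and synthetase activities together (chromosome 12, 76255298 to 76319803, plus strand), had 7784 and 4562 counts, 59.2 and 45.0 CPM, and a log2 fold of -0.40 [-0.45 to -0.34] and a length-adjusted value of -0.22. Mthfd2 and Mthfd1 were thus modestly lower, while the sign for Mthfd1l rested on the scale used. Relative to cytosolic Mthfd1, both mitochondrial genes were higher in siBcat1 by counts and by TPM, and for Mthfd2 the sign turned with length adjustment. The ratio of Mthfd2 to Mthfd1 was 2.68 in siControl and 2.86 in siBcat1 by TPM, with a log2 fold difference of 0.09 [0.03 to 0.16] that was -0.25 after length adjustment. The ratio of Mthfd1l to Mthfd1 was 0.851 and 1.11, with a log2 fold difference of 0.38 [0.31 to 0.46] that was 0.49 after length adjustment.

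The last enzymes, which oxidise the formyl group of 10-formyltetrahydrofolate to carbon dioxide and make NADPH, were the ones past 1.5-fold. Aldh1l2, the mitochondrial form (chromosome 10, 83487450 to 83534140, minus strand), had 17238 counts in siControl and 3913 in siBcat1, 131 and 38.6 CPM. Its log2 fold was -1.76 [-1.81 to -1.71], and 3.35% of all genes with at least 5 CPM had a lower one. Aldh1l2 also has the longest transcript of the 10, at 6027 bases against 1733 to 3630 for the others, and the trend at that length stood at -0.74. With it removed the value was -1.03, below which 4.91% of genes lay. Aldh1l1, the cytosolic form (chromosome 6, 90486427 to 90600203, plus strand), had 2329 and 2781 counts, 17.7 and 27.5 CPM. Its log2 fold was 0.63 [0.55 to 0.71], an interval that reaches below 1.5-fold, and its length-adjusted value was 0.75, with 15.8% and 8.43% of genes above. After length adjustment the count was again 1 of 10 members lower and 1 of 10 higher by at least 1.5-fold, beside 14.1% and 12.8% of 9886 genes with a known length.

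**Figure D3:**
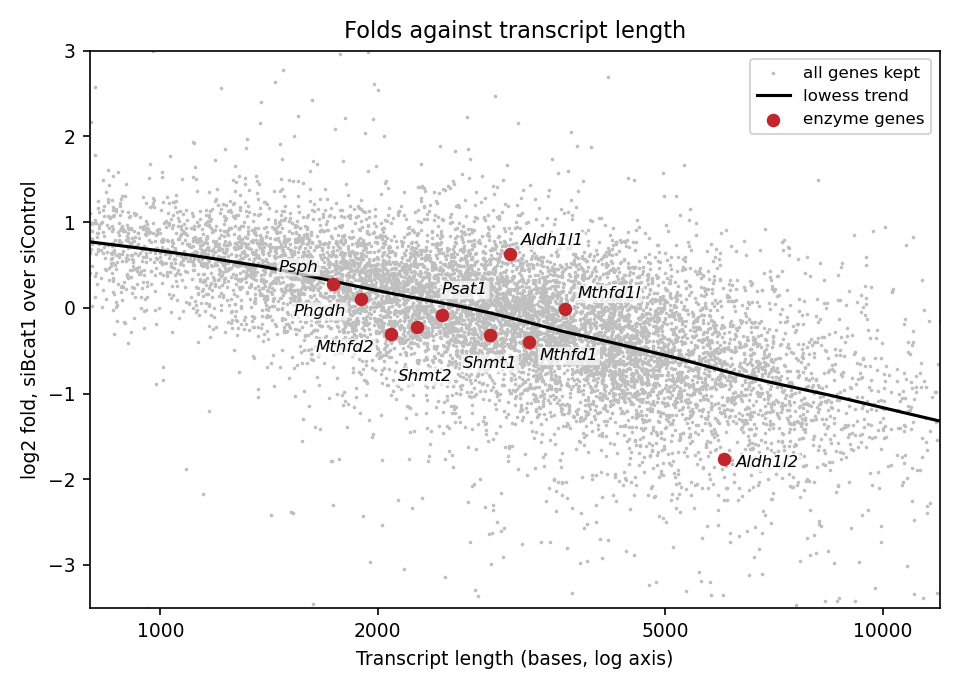
Log2 fold of siBcat1 over siControl against transcript length (log axis) for all genes that passed the minimum level (grey), with the lowess trend (line) and the 10 enzyme genes (red); genes beyond the axis limits are not drawn. Aldh1l2 lies 1.03 below the trend and Aldh1l1 0.75 above it, while the other 8 have length-adjusted values from -0.47 to 0.27.

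The order of the 2 dehydrogenase genes turned between the libraries. Aldh1l2 had 45.1 TPM and Aldh1l1 11.9 TPM in siControl, a ratio of 3.79, whereas in siBcat1 Aldh1l2 had 9.36 TPM and Aldh1l1 13.0 TPM, a ratio of 0.720. From the 4 counts, Aldh1l2 relative to Aldh1l1 was 5.26-fold lower in siBcat1, a log2 difference of -2.40 [-2.49 to -2.30]. The difference was -1.78 with length-adjusted values. Among the 4 pairs of mitochondrial and cytosolic genes, this was the only ratio to move by more than 1.5-fold. The summed TPM of both genes was 57.0 in siControl and 22.4 in siBcat1.

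**Figure D4:**
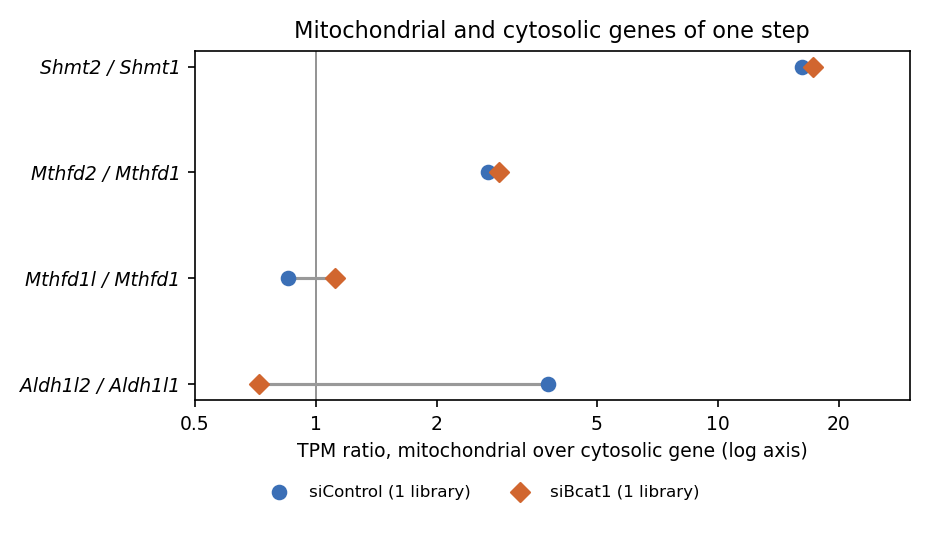
Ratio of deposited TPM (log axis) of the mitochondrial to the cytosolic gene for each step, in the siControl library (circles) and the siBcat1 library (diamonds); the vertical line marks equal levels. Aldh1l2 over Aldh1l1 goes from 3.79 to 0.720, and the other 3 ratios stay close together, Mthfd1l over Mthfd1 crossing from 0.851 to 1.11.

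Opposite folds of 2 related genes depend on reads being told apart, so their coding sequences (GENCODE M21) were aligned. Aldh1l2 and Aldh1l1 were identical at 1940 of 2704 aligned coding bases (71.7%), the closest of the 4 pairs, and the others had 64.0% to 65.6%. No stretch of 50 bases was shared in any pair, and the longest exact run common to Aldh1l2 and Aldh1l1 was 22 bases. The run lies in exon 3 of 23 in both genes, within the coding part. Close but inexact stretches of read size were not searched for, and untranslated parts were not compared. The run is shown in capitals, with 30 bases on either side, as the longest exact match of the 2 coding sequences. The Aldh1l2 stretch is at chr10:83522775-83522856 on the minus strand, and the Aldh1l1 stretch is at chr6:90559322-90559403 on the plus strand (GRCm38).
Aldh1l2: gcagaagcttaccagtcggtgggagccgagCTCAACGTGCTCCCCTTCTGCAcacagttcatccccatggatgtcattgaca
Aldh1l1: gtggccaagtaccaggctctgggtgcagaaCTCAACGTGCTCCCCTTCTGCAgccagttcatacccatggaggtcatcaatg
The sequences differ on both flanks of the run, as they must right beside a longest exact match. Overlap with other genes was larger: 1056 of 6091 exon bases of Aldh1l2 (17.3%) are shared with D10Wsu102e on the opposite strand, with 8122 and 5514 counts and a log2 fold of -0.18. For Aldh1l1, 438 of 4175 exon bases (10.5%) are shared with the antisense gene Gm15756. The part of these overlaps in either fold was not tested.

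The scale of the values bears on how many members count as lower. On the log2(TPM + 1) scale 6 of 10 members were at least 1.5-fold lower, beside 46.5% of all genes, and these were Psat1, Shmt1, Shmt2, Mthfd1, Mthfd2 and Aldh1l2. None was then at least 1.5-fold higher, Aldh1l1 having 11.9 and 13.0 TPM, a difference of 0.12. The members' median was -0.64 on that scale, beside -0.52 for all genes. Over the 10 alternative settings, Aldh1l2 was at least 1.5-fold lower in 10, from -2.26 to -1.03. Aldh1l1 was above 0 in 10 and at least 1.5-fold higher in 7, from 0.12 to 0.78. Shmt2, Mthfd1 and Mthfd2 were below 0 in 10 of 10 and Shmt1 in 9 of 9, whereas Phgdh, Psat1, Psph and Mthfd1l took both signs. Not all settings are separate checks of a gene. Minimums of 1 and 20 CPM cannot change its fold, and the prior count of 0.5 hardly changed it (Aldh1l2 stayed at -1.76).

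The lists of connected genes around these enzymes hold few genes each. Their counts past 1.5-fold are to be read against the 25.6% of all genes that were lower and the 17.6% that were higher. After length adjustment these shares of all genes were 14.1% and 12.8%. Of the 7 measured genes of 9 for folate uptake and retention, none was past 1.5-fold in either direction, but after length adjustment 1 was higher and none lower. Slc25a32, the carrier that brings folate into mitochondria, had a log2 fold of 0.46. On an annotated transcript of 5905 bases its length-adjusted value was 1.18, the one past 1.5-fold. With the trend on the length that counts and TPM imply removed instead, Slc25a32 had 0.57, within 1.5-fold. Ggh, a folate hydrolase, had 0.45 (length-adjusted 0.24), and Slc19a1, the reduced folate carrier, had -0.34 (length-adjusted -0.43). Of 9 measured genes of 10 among other folate-dependent enzymes, 2 were at least 1.5-fold lower and 2 higher, shares near those of all genes, and after length adjustment none was past 1.5-fold in either direction. Their median was -0.27 and -0.28 length-adjusted. For Mtr, the methionine synthase, the counts were 2631 and 795 and the log2 fold -1.35 [-1.47 to -1.24]. Its annotated transcript of 8294 bases is long, and the length-adjusted value was -0.35. With the trend on the length that counts and TPM imply removed instead, Mtr had -0.91, past 1.5-fold. Its place within 1.5-fold thus rested on the length used. For Mthfsl the counts were 908 and 1376, with a log2 fold of 0.98 and a length-adjusted value of 0.21 on a short transcript of 801 bases. Mthfs, which returns a side form of folate to the cycle, had a log2 fold of 0.83 and a length-adjusted value of 0.07. Named after its values were seen, the remaining gene past 1.5-fold was Mtrr, which reactivates Mtr, with -0.76 (length-adjusted -0.54).

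**Figure D5:**
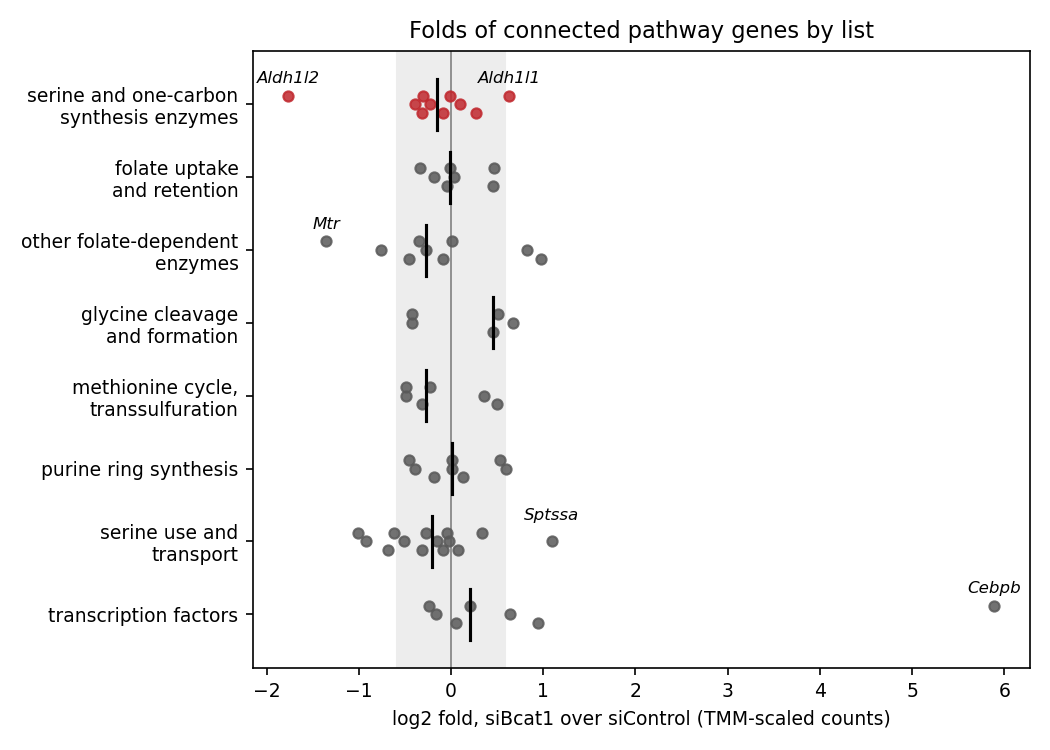
Log2 folds (TMM-scaled counts) of the 10 enzyme genes (red) and of measured genes in 7 connected lists (grey); vertical bars are list medians and the grey band marks folds under 1.5-fold. Most genes lie inside the band, with Aldh1l2 and Mtr far to the left and Cebpb, at 5.89, far to the right.

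The neighbouring routes for glycine, methionine and purines gave few genes past 1.5-fold in scaled counts. Of 5 measured genes of 10 for glycine cleavage and glycine formation, 1 was higher and none lower, and none was past 1.5-fold after length adjustment, the median being 0.46 and 0.22 length-adjusted. Gcsh, the carrier protein of the glycine cleavage system, had a log2 fold of 0.67 (length-adjusted 0.22), its partner Dld 0.50 (0.47), and Gcat, a mitochondrial glycine-forming enzyme, 0.46 (0.27). The other 2 measured genes were below 0 in scaled counts and were named after their values were seen. They were Sardh with -0.43 (length-adjusted 0.04) and Gldc with -0.42 (-0.12). Amt, the cleavage subunit that needs folate, did not pass the minimum level, with 7 and 9 counts, and was named after these were seen. None of 6 measured genes of 11 in the methionine cycle and transsulfuration passed 1.5-fold, before or after length adjustment. Mtap, of methionine salvage, had 0.50 (length-adjusted 0.54), and Ahcyl2 and Ahcyl1, relatives of the adenosylhomocysteine hydrolase, had -0.49 and -0.48 (0.09 and -0.15). Of the 8 purine ring synthesis genes, all measured, 1 was higher and none lower, beside 17.6% and 25.6% of all genes, and the median was 0.01. After length adjustment 3 were higher and none lower, beside 12.8% and 14.1%, with a median of 0.07. Ppat, the committed step, had 0.60 (length-adjusted 0.96), and Prps2, which makes its substrate, had 0.53 (0.82). The third, named after its values were seen, was Pfas, a later step of the ring, with -0.18 before and 0.61 after adjustment on a transcript of 6373 bases. Gart, which takes formyl groups from 10-formyltetrahydrofolate, had -0.46 (-0.28).

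Of 14 measured genes of 17 for using and moving serine, 4 were at least 1.5-fold lower and 1 higher, beside 25.6% and 17.6% of all genes. After length adjustment 2 were lower and 2 higher, and the median went from -0.21 to -0.02. Sptssa, a small subunit of the serine palmitoyltransferase that starts sphingolipid synthesis, had 6469 and 10650 counts, a log2 fold of 1.09 and a length-adjusted value of 0.59. The other gene higher after adjustment, named after its values were seen, was Sptlc2, a catalytic subunit of the same enzyme, with 0.07 before and 0.90 after on a transcript of 6710 bases. Serinc5 went from 5895 to 2265 counts, with a log2 fold of -1.004 and a length-adjusted value of -0.38. Slc6a9, a glycine transporter, went from 3456 to 1409 counts, with -0.92 before and -0.68 after length adjustment. The other lower genes, named after their values were seen, were the neutral amino acid transporters Slc1a5 with -0.69 (length-adjusted -0.66) and Slc1a4 with -0.62 (-0.28). Among 7 transcription factor genes, all measured, 3 were at least 1.5-fold higher and none lower, beside 17.6% and 25.6% of all genes. After length adjustment 3 were higher and 1 lower, and the median went from 0.20 to -0.01. With the trend on the length that counts and TPM imply removed instead, that median was 0.16. The log2 fold was 5.89 for Cebpb (124 and 5681 counts), 0.94 for Myc (1850 and 2734 counts) and 0.64 for Mycn (771 and 928 counts), and the length-adjusted values were 5.47, 0.81 and 0.65. The gene lower after adjustment, named after its values were seen, was Ddit3, a stress-induced factor, with -0.16 before and -0.88 after on a transcript of 890 bases. Atf4, the factor best known for acting on serine synthesis genes, was named after its values were seen: from 34575 and 22627 counts it had a log2 fold of -0.24 [-0.26 to -0.21] and a length-adjusted value of -0.55.

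Promoter windows of RefSeq (GRCm38.p6; 250 bases before to 50 after a start) were matched for 9 of the 10 genes, Aldh1l2 aside, in 10 windows because Psat1 has 2 starts. Motifs were searched as plain letters on both strands, and a match is a description of the letters only. The C/EBP-ATF element TGATGNAA was in 0 of 10 windows and in 3.97% of all 32851 windows, and the E-box CACGTG was in 0 of 10 and 7.15%. The antioxidant element TGACNNNGC was in 2 of 10 (Phgdh and Psph) and 12.4%, and the GC box GGGCGG in 6 of 10 and 35.7%. The CCAAT box CCAAT was in 7 of 10 windows and in 37.4% of all, and the genes without it were Mthfd1l and Shmt2. The 150 bases before the RefSeq start are shown for the 2 windows with a CCAAT box there and no annotated exon, as examples from genes with small folds. The box is in capitals (ATTGG on the other strand). Both stretches lie inside the gene spans given above, so they are not upstream of the whole annotated gene. They are Psat1 at chr19:15925060-15925209 and Shmt1 at chr11:60811266-60811415, both on the minus strand.
Psat1: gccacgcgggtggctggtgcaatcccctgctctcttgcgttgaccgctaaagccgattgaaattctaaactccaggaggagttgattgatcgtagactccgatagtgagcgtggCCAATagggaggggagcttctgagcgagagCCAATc
Shmt1: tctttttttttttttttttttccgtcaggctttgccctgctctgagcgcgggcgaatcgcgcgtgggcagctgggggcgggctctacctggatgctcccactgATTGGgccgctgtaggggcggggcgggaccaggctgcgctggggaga
The Psat1 stretch shown holds the box 2 times in forward orientation, with another copy beyond the start in the same window, and the Shmt1 stretch holds it 1 time in reverse, while the log2 folds of these genes were -0.09 and -0.31.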

How the data were processed

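One siControl and one siBcat1 library were compared, with groups taken from the treatment labels. Per the submitters' processing notes, FastQC, Trimmomatic, HISAT2, StringTie and build mm10 were used; the sources used here do not give versions, settings, strand use or whether reads or read pairs were counted. The deposited counts are raw read counts, per the file headers. The TPM values, scaled for length and depth, are the authors' own, as deposited. A stranded mRNA kit was used, per the labels' protocols.

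Counts were scaled with TMM factors (edgeR 4.0.16, R 4.3.3), 1.03 for siControl and 0.969 for siBcat1. Folds carry exact Clopper-Pearson 95% intervals, and differences between folds of 2 genes exact conditional odds ratio intervals (scipy 1.17.1). Both cover counting error only and take reads as independent. Genes were kept at an average of 5 CPM or more. The length trend is a lowess curve (statsmodels 0.14.6, fraction 0.3, 3 iterations) of log2 fold on log2 length of GENCODE M21 transcripts matched by RefSeq accession, known for 9886 kept genes. The alternatives tried were upper-quartile factors, size factors of DESeq2 1.42.0, plain library totals, log2(TPM + 1) and log2(TPM + 0.1), minimum CPM of 1, 20 or none (prior count 0.5), and removal of trends on transcript length or on the length that counts and TPM imply. Calculations were checked on simulated data.

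Named genes were the 10 members, Bcat1 and, from each of 7 other lists, the 3 kept genes with the largest absolute log2 fold. Other listed genes are said in the text to have been named after their values were seen; markers and overlapping genes are named as checks. The members, lists and rules were chosen with earlier results of these data known. Listed genes that are not reported here were left out of their lists, and the lists' counts and medians are without them.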

Additional observations from a re-analysis of the deposited data

How the results depend on the processing

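With 1 library per group no replicate can be left out, and depth limits only the counting error, which is smallest for Phgdh and largest for Shmt1. No paired analysis was possible because each group has 1 library. The 1 member at least 1.5-fold lower was 6 members with log2(TPM + 1) and 6 with log2(TPM + 0.1). The 1 member at least 1.5-fold higher was 0 with library totals, with both TPM scales, with a 2-fold threshold and when the whole counting interval had to lie past 1.5-fold. The members' median of -0.15 was -0.25 with library totals, -0.027 with upper-quartile factors, -0.64 and -0.66 with log2(TPM + 1) and log2(TPM + 0.1), -0.087 at a minimum of 20 CPM, where Shmt1 is left out, -0.18 and -0.21 with the trend on transcript length or on implied length removed, and -0.21 as a mean. It stayed below 0 in each. The shift of the median of all genes was -0.46 with log2(TPM + 1) and 0.13 with upper-quartile factors. Of 99 member folds under these alternatives, 57 left their counting interval and 0 of those past 1.5-fold changed sign. The 99 include the folds at minimums of 1 and 20 CPM, which a minimum cannot change. Of the 7 other list medians, 4 took both signs, those for folate uptake, glycine genes, purine synthesis and transcription factors.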
